A study of Homo sapiens with 9 samples.

Results

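The liver and gut genes examined here are 29 genes that mark hepatocytes or intestinal epithelium, taken by name, and all 29 were found among 19974 protein-coding genes on chromosomes 1 to 22 and X. The cells were SK-N-MC, an established line of Ewing sarcoma, and the assay was ATAC-seq, which uses a transposase to insert sequencing adapters where chromatin is open. Cells carried doxycycline-inducible short hairpin RNAs: shCHD4#1 (hairpin 1 here) and shCHD4#2 (hairpin 2) against CHD4, a helicase-like motor subunit of the NuRD complex, and shScramble, the non-targeting control. All 3 groups, the control included, were cultured with 100 ng/ml doxycycline for 48 h, had 3 biological replicates each, and received a spike-in of Drosophila S2 cells (100 for 100000 human cells). The files analysed here are 3 lists of accessible regions in GRCh38, 1 list per group, so no difference between groups could be tested and no value has a spread between replicates. A list shows whether a region was called in a population of cells, so a region open in fewer cells and a region less open in every cell cannot be told apart.

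Hepatocytes secrete most plasma proteins and hold the enzymes of drug and nitrogen metabolism, and their genes are kept active by a network of factors that includes HNF4A and FOXA proteins. Intestinal epithelium is specified by the homeobox factors CDX1 and CDX2. NuRD removes histone acetylation and moves nucleosomes, and it is known for holding genes of other lineages closed. The 3 fusion-activated markers of this tumour, NR0B1, NKX2-2 and CCND1, each had a covered end in every list, that is, a region within 1 kb of a gene end. Over all protein-coding genes an end was covered at 73.0% with hairpin 1, 68.4% with hairpin 2 and 64.8% with shScramble. With shares this high, 3 covered genes cannot check the cell type. The 5 hepatocyte markers ALB, APOA1, TTR, SERPINA1 and HNF4A had a covered end at 2 genes with hairpin 1, 1 with hairpin 2 and 0 with shScramble, and ALB and TTR had no region in any list. The 4 intestinal markers CDX1, CDX2, VIL1 and MUC2 had one at 3 genes with hairpin 1, 3 with hairpin 2 and 2 with shScramble. These 9 markers are a subset of the 29 genes and do not stand for them: over all 29 an end was covered at 13 genes with hairpin 1, 10 with hairpin 2 and 12 with shScramble (beside 73.0%, 68.4% and 64.8% of all protein-coding genes), and for example LGR5 and GCG had a covered end with shScramble and not with hairpin 2. Among 4 fibroblast markers (COL1A1, COL3A1, DCN and LUM) the numbers were 3 with hairpin 1, 2 with hairpin 2 and 2 with shScramble, so covered ends were also found at genes of another cell type.

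Transcription start sites were given by the RefSeq tables (GRCh38.p14) for 20 of the 29 genes, 26 starts in all, since CPS1 has 3 and TF, FGB, SERPINA1 and HNF4A have 2 each. The 250 bases before 6 of these starts are shown 5′ to 3′ to set starts that were accessible beside starts that were not. Capitals mark matches, on either strand, to the motifs spelled out further on. SERPINA1 was the gene with a start covered with a hairpin and not with shScramble, and that start is the one shown. Its other start was covered in no list. CPS1, TF and CDX2 had starts covered in every list. ALB and FABP1 had no region within 5 kb in any list, and these 2 were chosen for display after their values were seen.
SERPINA1 (chr14:94390636-94390885, minus strand): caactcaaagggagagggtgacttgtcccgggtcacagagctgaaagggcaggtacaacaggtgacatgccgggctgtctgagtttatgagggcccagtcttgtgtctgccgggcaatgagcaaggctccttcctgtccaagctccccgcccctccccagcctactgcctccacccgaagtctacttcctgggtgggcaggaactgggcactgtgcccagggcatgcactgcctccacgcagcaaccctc
CPS1 (chr2:210477435-210477684, plus strand): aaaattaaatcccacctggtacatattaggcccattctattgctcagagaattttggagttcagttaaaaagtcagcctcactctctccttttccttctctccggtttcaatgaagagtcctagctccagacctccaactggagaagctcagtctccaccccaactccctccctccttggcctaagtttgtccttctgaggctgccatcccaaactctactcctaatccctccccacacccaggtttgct
TF (chr3:133661748-133661997, plus strand): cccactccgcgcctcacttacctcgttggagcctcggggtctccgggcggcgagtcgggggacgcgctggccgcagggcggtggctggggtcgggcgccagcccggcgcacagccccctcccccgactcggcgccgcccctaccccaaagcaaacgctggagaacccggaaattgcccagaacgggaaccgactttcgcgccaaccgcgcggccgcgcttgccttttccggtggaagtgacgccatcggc
CDX2 (chr13:27969316-27969565, minus strand): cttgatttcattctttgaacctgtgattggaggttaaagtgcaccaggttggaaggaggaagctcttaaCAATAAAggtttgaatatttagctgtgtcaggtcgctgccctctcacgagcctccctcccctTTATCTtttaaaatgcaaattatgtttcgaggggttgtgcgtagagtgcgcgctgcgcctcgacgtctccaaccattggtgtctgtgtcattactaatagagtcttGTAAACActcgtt
ALB (chr4:73404037-73404286, plus strand): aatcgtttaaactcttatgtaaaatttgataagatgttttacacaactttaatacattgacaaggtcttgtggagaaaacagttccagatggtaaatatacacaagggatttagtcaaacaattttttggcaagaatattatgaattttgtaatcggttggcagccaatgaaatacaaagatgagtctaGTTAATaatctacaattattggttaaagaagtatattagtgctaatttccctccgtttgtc
FABP1 (chr2:88128063-88128312, minus strand): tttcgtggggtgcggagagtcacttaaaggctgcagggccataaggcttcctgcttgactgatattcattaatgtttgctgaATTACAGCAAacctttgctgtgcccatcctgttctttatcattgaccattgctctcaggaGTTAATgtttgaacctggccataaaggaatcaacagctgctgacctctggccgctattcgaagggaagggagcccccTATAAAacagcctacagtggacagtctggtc

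The windows differed in CpG content. The 300-base start window (250 bases before to 50 after the start) of TF held 36 CpG, 0.999 of the number expected from its C and G content, and that of CDX2 held 16, a ratio of 0.844. The covered start of CPS1 held 1 (0.0750), SERPINA1 8 (0.281), FABP1 7 (0.374) and ALB 4 (0.481). The starts of APOA2 (0.0516), AMBP (0.211) and MUC2 (0.334), covered in every list and not printed, also had low ratios. Over the 26 member starts the median ratio was 0.264, against 0.738 over 22132 starts of all protein-coding genes, and 88.5% of member starts had a ratio under 0.6, against 37.8% of all starts. The members' windows were also less rich in G and C, with a median of 50.2% against 62.3%.

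**Figure D1:**
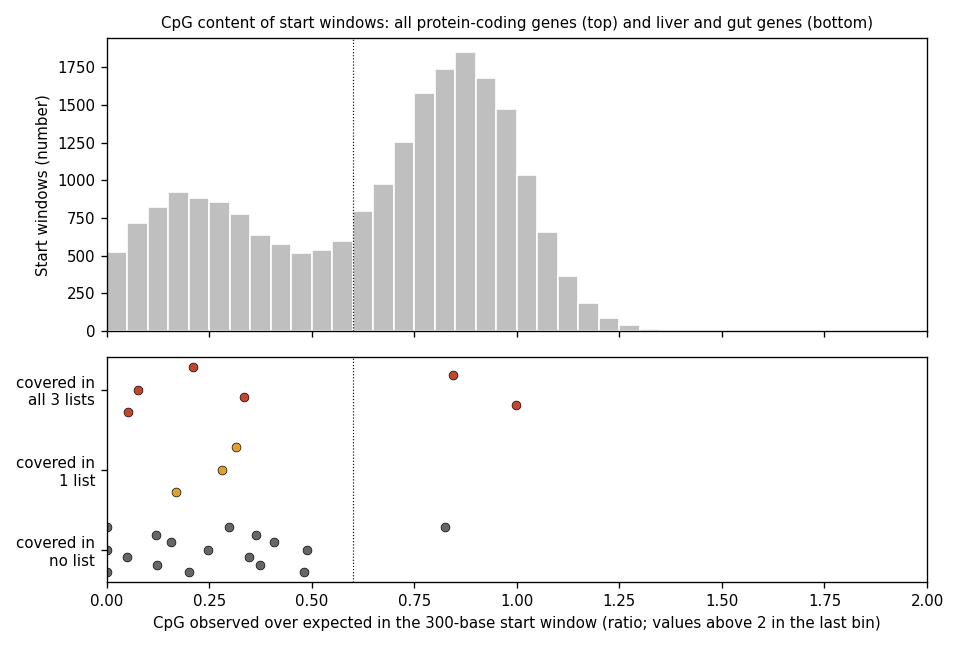
Ratio of observed to expected CpG in the 300-base window around each start, as numbers of start windows for all protein-coding genes (bars, top) and as 1 point per start of the liver and gut genes (bottom), split by how many lists covered the start. The dotted line marks a ratio of 0.6. Of the 26 member starts, 23 lie left of it, and both CpG-rich starts covered in all 3 lists, TF and CDX2, lie right of it. The starts of APOA2, CPS1, AMBP and MUC2 that were covered in all 3 lists lie left of it.

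A start was called covered when a listed region lay within 1 kb of it. The 9 genes without a given start, APOA1 and VIL1 among them, are outside the counts that follow. Of the 20 genes with a start, 7 had one covered with hairpin 1 (95% Wilson interval of the share 18.1% to 56.7%), 6 with hairpin 2 (14.5% to 51.9%) and 8 with shScramble (21.9% to 61.3%). Over the 15812 protein-coding genes with a start, the shares were 71.1% with hairpin 1, 68.2% with hairpin 2 and 62.9% with shScramble, each above the members' interval. Among starts with a CpG ratio under 0.6, 5 of 23 member starts were covered with hairpin 1 (21.7%), 4 with hairpin 2 (17.4%) and 6 with shScramble (26.1%), beside 43.8%, 36.0% and 33.7% of 8364 such starts over all genes. This class holds 23 of the 26 member starts, and only TF and CDX2 have starts at or above 0.6. In each list the CDX2, MUC2, AMBP and APOA2 starts were covered, and so was the start farthest upstream of TF and of CPS1. The other TF start, with a CpG ratio of 0.825, and the other CPS1 starts were covered in no list. The upstream SERPINA1 start was covered with hairpin 1 alone, and the other SERPINA1 start in no list. The CYP2E1 and GCG starts were covered with shScramble alone. At both of these genes a hairpin 1 region that overlapped a shScramble region lay more than 1 kb from the start.

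In all, 8 short motifs were searched on both strands of the start windows, and overlaps between motifs were allowed. GTTAAT was in 9 of 26 member windows (34.6%) and in 5.54% of all windows. AGATAA, bound by GATA factors, was in 30.8% of member windows and 7.88% of all. TATAAA, the TATA box, was in 26.9% of member windows and 9.46% of all, and a C/EBP motif (TTGC and AAT with any 3 bases between) was in 15.4% and 1.56%. The part of the members' lower G and C content in these shares was not tested. The windows of the 2 FGB starts overlap and are counted separately. TGTTTAC (FOXA) was in 7.69% of member windows and 2.85% of all, TTTATTG (CDX) in 3.85% and 2.91%, and neither CAAAGTCCA (HNF4) nor GGAAGGAA (an ETS repeat) was in a member window, beside 0.357% and 3.68% of all. In ALB the GTTAAT match lay at positions -61 to -56, the start being 0, and in FABP1 at -108 to -103, upstream of a TATAAA at -31 to -26. Of the 9 windows with GTTAAT, only that of CDX2 belonged to a covered start, and there the match spans the start itself and is not capitalised above.

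Counted over loci (the gene with 5 kb on both sides, sharing at least 1 bp with a region), the liver and gut genes as a group held a similar share of each list. There were 87 listed regions in the 29 loci with hairpin 1, 55 with hairpin 2 and 57 with shScramble, each counted once. As shares of their lists these are 0.0708% (95% Wilson interval 0.0574 to 0.0873) of 122869 regions, 0.0661% (0.0508 to 0.0860) of 83241 and 0.0665% (0.0513 to 0.0861) of 85775. The intervals overlap throughout and cover counting error only. The loci thus held 1.53 times as many regions with hairpin 1 as with shScramble, while the whole list held 1.43 times as many, and with hairpin 2 the factors were 0.965 and 0.970. The members' density was 7.13 regions per 100 kb of locus with hairpin 1, 4.47 with hairpin 2 and 4.54 with shScramble, beside 6.20, 4.54 and 4.57 over all genes.

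At least 1 region was listed in the locus of 23 of the 29 genes with hairpin 1, 19 with hairpin 2 and 20 with shScramble, beside 88.5%, 84.8% and 83.9% of all protein-coding genes. Member loci were shorter, with a median of 21761 bases against 34164. The 6 genes with no region in any list were ALB, TTR, HP, FGG, FABP1 and FABP2, that is 20.7% of the members against 9.91% of all genes. A covered gene end, meaning a region within 1 kb of either end, was found at 13 genes with hairpin 1, 10 with hairpin 2 and 12 with shScramble, which is 44.8% (28.4 to 62.5), 34.5% (19.9 to 52.7) and 41.4% (25.5 to 59.3), beside 73.0%, 68.4% and 64.8% of all genes. Each region carries a p value set by the authors. Restricted to regions with such a p up to 0.05, a covered end was found at 5 members with hairpin 1 (APOA2, APOC3, CPS1, TAT and CDX2), 4 with hairpin 2 (APOA1, APOA2, APOC3 and CPS1) and 1 with shScramble (CPS1), beside 27.7%, 29.5% and 22.8% of all genes. At APOA2 a shScramble region lay across the gene end, but with an authors' p of 0.951, the commonest p of that list.

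**Figure D2:**
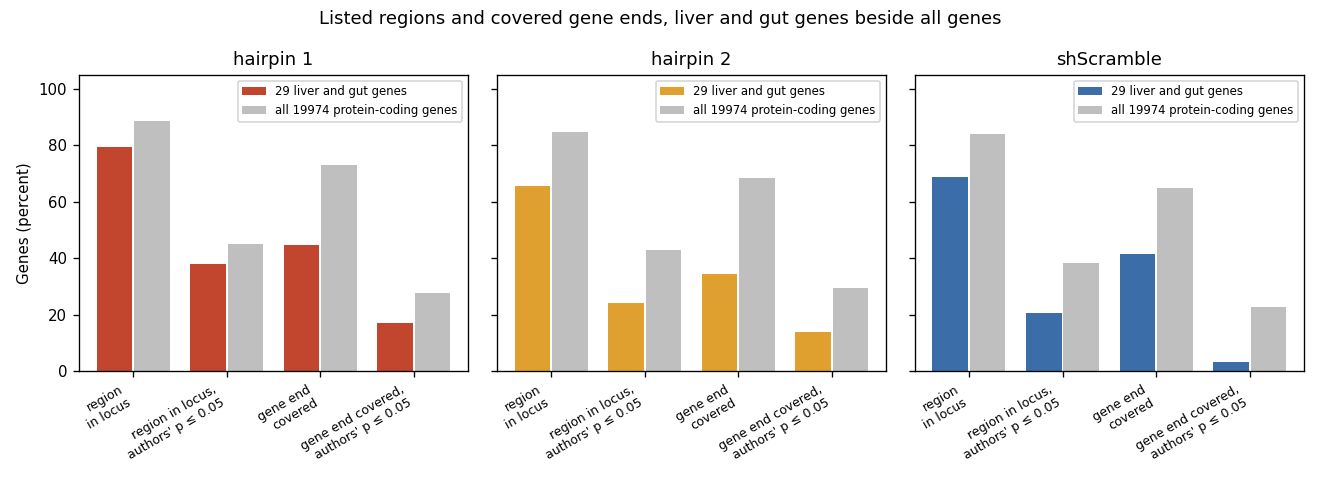
Percent of the 29 liver and gut genes (coloured bars) and of all 19974 protein-coding genes (grey bars) with at least 1 region in the locus and with a covered gene end, over all regions and over those with an authors' p up to 0.05, in a panel per list. Each coloured bar lies below its grey bar, for example 44.8% against 73.0% for covered ends with hairpin 1 and 41.4% against 64.8% with shScramble.

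Each hairpin was compared with the same shScramble list, so the 2 comparisons share their control. With hairpin 1, 14 of the 29 genes exceeded their shScramble number (48.3%, beside 51.2% of all genes), 3 were below it (10.3%, beside 17.3%) and 6 had the same number above 0 (20.7%, beside 21.3%). With hairpin 2, 7 genes exceeded it (24.1%, beside 30.7% of all genes), 7 were below (24.1%, beside 32.9%) and 8 had the same number above 0 (27.6%, beside 23.9%). The median log2 ratio of (regions + 1) was 0 over the members with either hairpin, against 0.17 and 0 over all genes. With lists shortened to their best 80000 regions, 10 members were above and 4 below with hairpin 1, beside 30.3% and 32.6% of all genes. Of the 9 members without a shScramble region, 3 had one with hairpin 1 (33.3%, beside 36.4% of all such genes) and 2 with hairpin 2 (22.2%, beside 22.1%). Of the 20 with a shScramble region, 0 lacked one with hairpin 1 (beside 1.43% of such genes) and 3 lacked one with hairpin 2 (APOB, CYP3A4 and GCG, 15.0%, beside 3.09%). A gene end was covered with hairpin 1 and not with shScramble at 3 members (SERPINA1, APOA1 and VIL1, 10.3%, beside 11.1% of all genes), and with hairpin 2 and not with shScramble at 2 (APOA1 and VIL1, 6.90%, beside 7.87%). The reverse was seen at 2 members with hairpin 1 (CYP2E1 and GCG, 6.90%, beside 2.93%) and at 4 with hairpin 2 (APOB, CYP2E1, LGR5 and GCG, 13.8%, beside 4.20%). At GCG a hairpin 1 region overlapped that of shScramble but lay 1154 bp from the gene end, against 964 bp, so the 1 kb limit fell between them. At CYP2E1 a region of each hairpin overlapped that of shScramble and likewise lay beyond the limit.

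**Figure D3:**
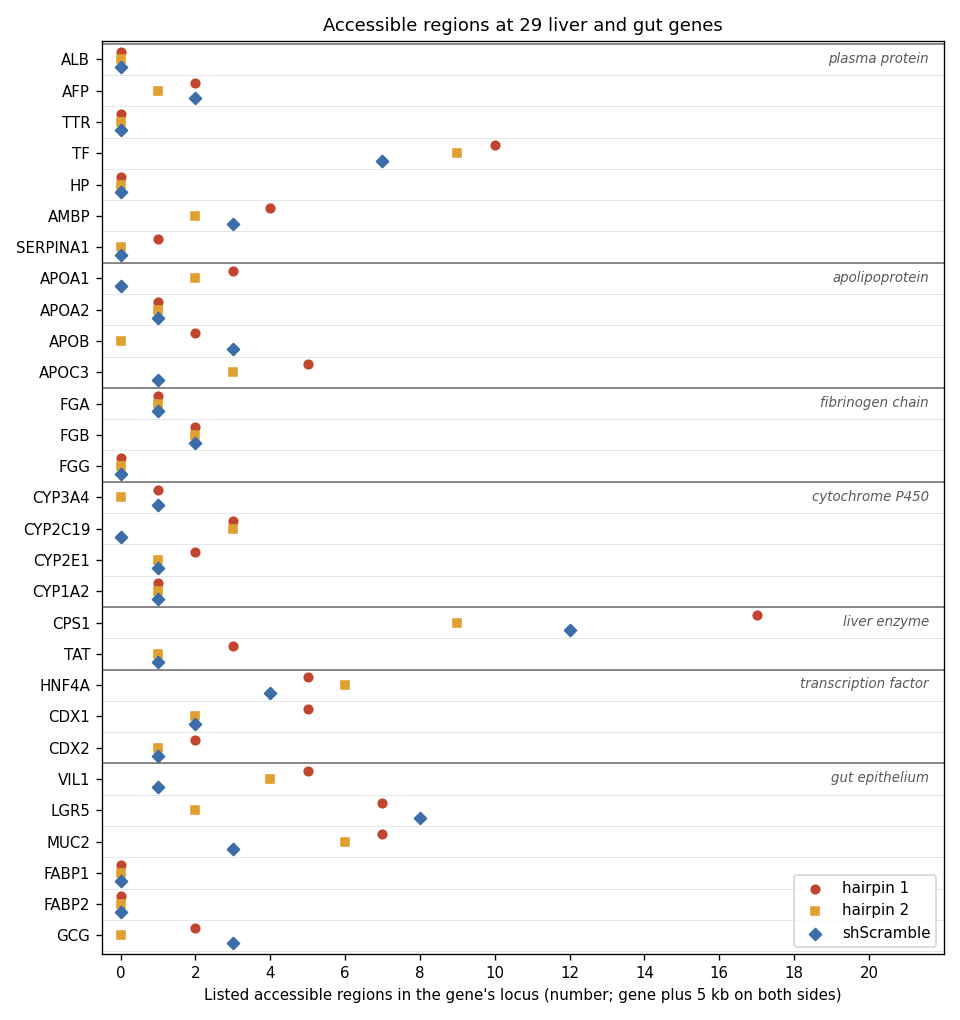
Number of listed regions in the locus of each of the 29 genes (rows, grouped by role), with 1 point per list. Numbers run from 0 to 17, CPS1 has the most regions in each list but that of hairpin 2, where TF also has 9, and 6 genes lie at 0 in all 3 lists.

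The apolipoproteins, which carry lipids in plasma, included loci with regions under both hairpins and few or none in the control. APOA1, the main protein of high-density lipoprotein (chromosome 11, 116835751 to 116837622), had 3 regions with hairpin 1, 2 with hairpin 2 and 0 with shScramble. Both hairpins listed a region over its lower-coordinate end, 116835701 to 116836950 with hairpin 1, at the 13.5% point of that list counted from the best region, and 116835561 to 116836680 with hairpin 2, at 11.2%. APOC3, an inhibitor of triglyceride clearance that lies 2679 bp away, had 5 regions with hairpin 1, 3 with hairpin 2 and 1 with shScramble. The counts of these neighbours share 3 regions with hairpin 1 and 2 with hairpin 2. The region at the lower-coordinate end of APOC3 was in every list, 2250 bp wide with hairpin 1, 1720 bp with hairpin 2 and 980 bp with shScramble, at the 5.54%, 6.74% and 21.5% points. Regions covered 67.5% of the APOC3 locus with hairpin 1, 30.2% with hairpin 2 and 7.44% with shScramble. APOB, the structural protein of low-density lipoprotein, had 2 regions with hairpin 1, 0 with hairpin 2 and 3 with shScramble, near its higher-coordinate end. APOA2 had 1 region in each list, which with both hairpins lay across an end of TOMM40L, 2432 bp from APOA2, and began 623 bp (hairpin 1) and 433 bp (hairpin 2) from the APOA2 start, and with shScramble also across that start. Its authors' p was 2.35e-06 with hairpin 1, 1.21e-05 with hairpin 2 and 0.951 with shScramble, the commonest p of that list. The authors' second value gave the other order, 2026 with hairpin 1, 2432 with hairpin 2 and 3534 with shScramble.

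Of the other plasma proteins, TF, the iron carrier transferrin, had 10 regions with hairpin 1, 9 with hairpin 2 and 7 with shScramble. Its start lies 57 bp from an end of TOPBP1, a DNA replication and checkpoint gene, and within another annotated gene, LOC124909487, so the covered start cannot be assigned to TF alone. AMBP, the precursor of alpha-1-microglobulin and bikunin, had 4 regions with hairpin 1, 2 with hairpin 2 and 3 with shScramble, and its start was covered in all 3 lists. AFP, the fetal counterpart of albumin, had 2 regions with hairpin 1, 1 with hairpin 2 and 2 with shScramble, all inside the gene and none within 1 kb of an end. The region around 14 kb into AFP was listed with both hairpins, at the 24.3% and 56.2% points, and not with shScramble. SERPINA1, which encodes alpha-1-antitrypsin, had 1 region with hairpin 1, 0 with hairpin 2 and 0 with shScramble. That region covered the start shown above but ranked at the 65.1% point. Among the fibrinogen chains, FGA had 1 region and FGB 2 in each list, none within 1 kb of an end. The FGA and FGB loci shared 1 region with hairpin 1 and with shScramble.

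Of the 4 cytochrome P450 genes, which oxidise drugs and other foreign compounds, CYP2C19 (chromosome 10, 94762681 to 94855547) had 3 regions with each hairpin and 0 with shScramble. The 3 places were the same with both hairpins and lay inside the gene, about 23, 39 and 67 kb from its start. Their ranks were modest, the best being at the 26.3% point with hairpin 1 and 29.9% with hairpin 2, none had an authors' p up to 0.05, and no end was covered. CYP2C19 belongs to a cluster of similar genes, and how reads were shared among copies is not given in the sources used here. CYP2E1 had 2 regions with hairpin 1, 1 with hairpin 2 and 1 with shScramble. The shScramble region began 8 bp into the gene, and those of the hairpins began 1298 and 1388 bp into it, outside the 1 kb window. CYP3A4 had 1 region with hairpin 1, 0 with hairpin 2 and 1 with shScramble, all past its lower-coordinate end. CYP1A2 had 1 region in each list beyond an end, 2824 bp away with hairpin 1 (6.12% point), 2334 bp with hairpin 2 (2.32%) and 2604 bp with shScramble (10.1%).

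CPS1, which starts the urea cycle, spans 201423 bases and had 17 regions with hairpin 1, 9 with hairpin 2 and 12 with shScramble. Of its 3 starts only the one farthest upstream was covered, in every list, at the 11.8% point with hairpin 1, 10.3% with hairpin 2 and 11.96% with shScramble. That start lies 101 bp from an end of LANCL1, so the region may belong to either gene. Inside the gene a region about 80 kb from the start was listed with both hairpins, at 16.5% and 29.9%, and not with shScramble. TAT, which breaks down tyrosine, had 3 regions with hairpin 1, 1 with hairpin 2 and 1 with shScramble. The region near its lower-coordinate end ranked at 10.9% with hairpin 1, 23.6% with hairpin 2 and 64.2% with shScramble. Its second authors' value was 472 with hairpin 1, 319 with hairpin 2 and 313 with shScramble, so the last 2 were close by that score.

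HNF4A, the nuclear receptor at the centre of the hepatocyte network, had 5 regions with hairpin 1, 6 with hairpin 2 and 4 with shScramble. Its starts, 45540 bp apart, were covered in no list. Most of its regions formed a group 28 to 35 kb downstream of the first start in every list, and a region near 51 kb was listed with both hairpins, at 70.1% and 89.5%, and not with shScramble. The best HNF4A region stood at the 4.46% point with hairpin 1, 20.1% with hairpin 2 and 11.4% with shScramble. The highest second authors' value in the locus gave another order, 798 with hairpin 1, 654 with hairpin 2 and 899 with shScramble. CDX1, a regulator of intestinal identity, had 5 regions with hairpin 1, 2 with hairpin 2 and 2 with shScramble, and no covered end in any list. Its best region, 3 to 6 kb outside the gene, stood at the 26.8% point with hairpin 1, 9.98% with hairpin 2 and 4.20% with shScramble. The hairpin 1 region abuts another, and the authors' second value gave a different order, 1549 with hairpin 1, 1661 with hairpin 2 and 1255 with shScramble. CDX2 had 2 regions with hairpin 1, 1 with hairpin 2 and 1 with shScramble. The region across its start stood at the 9.18% point with hairpin 1, 21.7% with hairpin 2 and 27.7% with shScramble.

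Among genes of the gut epithelium, VIL1, which encodes the microvillus protein villin (chromosome 2, 218419123 to 218453295), had 5 regions with hairpin 1, 4 with hairpin 2 and 1 with shScramble. Both hairpins covered its lower-coordinate end, at the 37.6% and 69.7% points, and both listed a region near 11 kb, at 20.3% and 15.4%. Neither place had a shScramble region, while the region near 26 kb was in all 3 lists. When the flanks were widened to 50 kb the order turned, with 13 regions for VIL1 with hairpin 1, 13 with hairpin 2 and 15 with shScramble. MUC2, the gel-forming mucin of goblet cells, had 7 regions with hairpin 1, 6 with hairpin 2 and 3 with shScramble. With both hairpins these include the same block of 7200 bp, whose second authors' value was -3. It stood at the 99.7% point with hairpin 1 and 99.5% with hairpin 2, and it also counts in the covered shares below. A region 13557 bp into MUC2 stood at the 3.66% point with hairpin 1 and 3.47% with hairpin 2. With shScramble the same stretch lay inside a region 21800 bp wide at the 90.9% point (among those at the commonest authors' p of that list), which also gave the only cover of the MUC2 start there, next to another of 15150 bp, and these 2 made up most of the 81.2% of the MUC2 locus covered there, against 40.4% with hairpin 1 and 29.7% with hairpin 2. MUC2 is highly repetitive, and how reads in repeats were placed is not given in the sources used here. LGR5, a receptor of intestinal stem cells, had 7 regions with hairpin 1, 2 with hairpin 2 and 8 with shScramble. A region at its lower-coordinate end was listed with hairpin 1 and shScramble, at the 36.3% and 50.4% points, and not with hairpin 2. GCG, which encodes glucagon and its relatives, had 2 regions with hairpin 1, 0 with hairpin 2 and 3 with shScramble, none better than the 60.0% point.

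**Figure D4:**
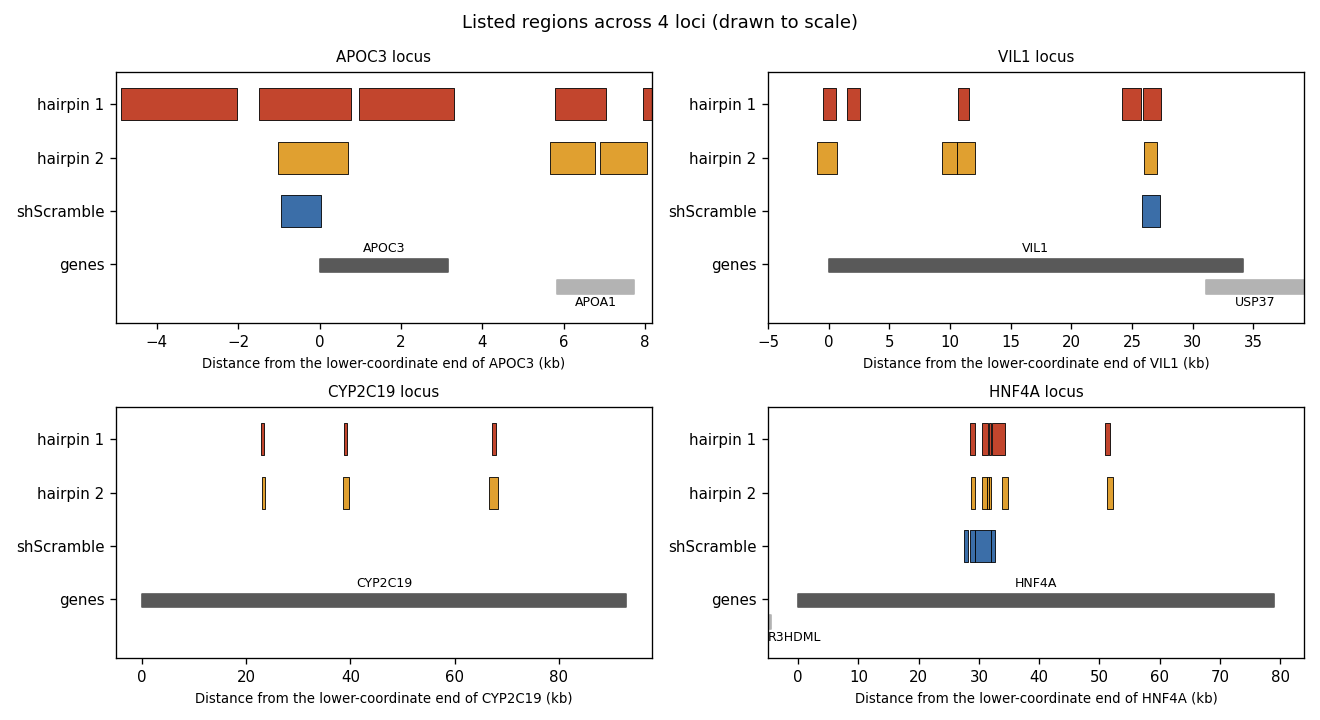
Listed regions at the APOC3 (with APOA1), VIL1, CYP2C19 and HNF4A loci, drawn to scale as distance in kb from the lower-coordinate end of each named gene, with 1 row of boxes per list and genes as grey bars. APOA1 and CYP2C19 have boxes with both hairpins and none with shScramble, VIL1 has 5, 4 and 1, and HNF4A has a group near 30 kb in every list.

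Member regions were close to their lists in the share with a low authors' p and in width. Their median rank stood at the 42.6% point with hairpin 1, 41.8% with hairpin 2 and 58.2% with shScramble. That is better than mid-list with both hairpins and worse with shScramble, and this order was not tested. An authors' p up to 0.05 was reached by 13.8% (Wilson 8.07 to 22.6) of the 87 regions with hairpin 1, 12.7% (6.30 to 24.0) of the 55 with hairpin 2 and 10.5% (4.91 to 21.1) of the 57 with shScramble, beside 11.9%, 13.1% and 12.6% of the whole lists. Their median width was 1440 bp with hairpin 1, 1070 bp with hairpin 2 and 1330 bp with shScramble, beside 1390, 1040 and 1450 bp. The number of members with at least 1 region at that limit was 11 with hairpin 1, 7 with hairpin 2 and 6 with shScramble, or 37.9%, 24.1% and 20.7%, beside 45.2%, 43.1% and 38.4% of all genes. Among the members with a region, the best region stood in the median at the 12.1% point of the list with hairpin 1 (23 genes), 17.8% with hairpin 2 (19) and 26.6% with shScramble (20). The part of the longer hairpin 1 list in this order was not tested.

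**Figure D5:**
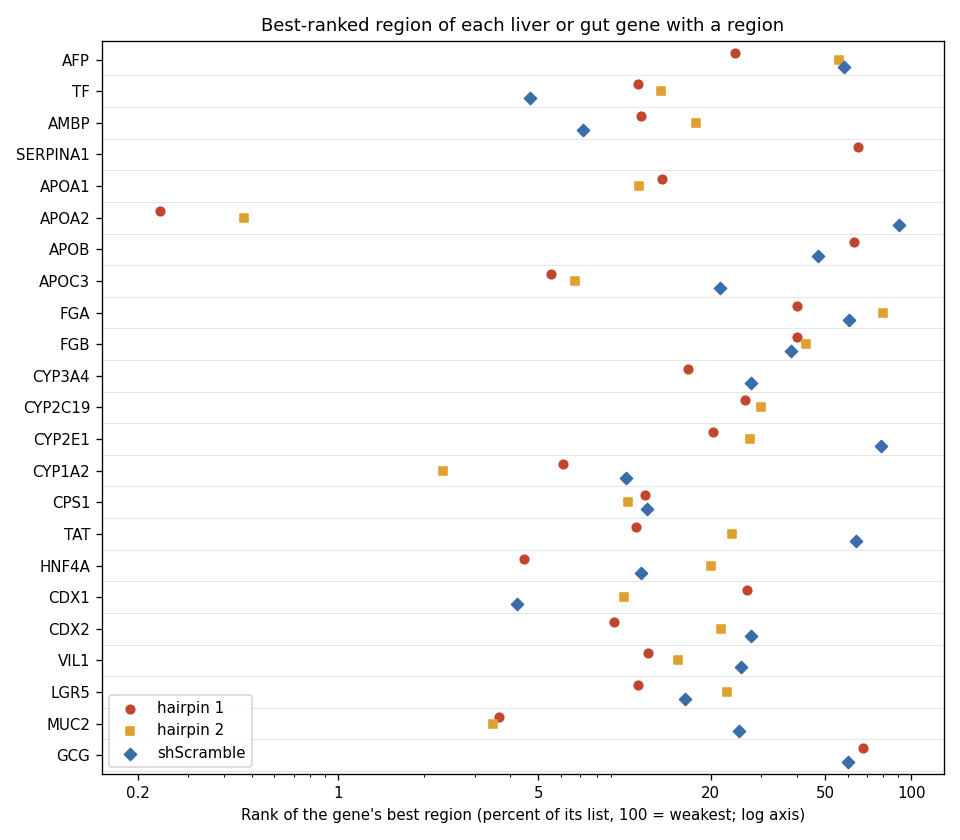
Rank of the best region in the locus of each of the 23 genes with a region, as percent of its list on a log axis (100 is the weakest region), with 1 point per list. APOA2 has the best rank with both hairpins, 0.240% and 0.469%, and 90.9% with shScramble, and CDX1 and TF rank best with shScramble, at 4.20% and 4.67%.

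A wider set of 137 other liver and gut genes, all found in the reference, was read in the same way. With hairpin 1, 60 of them were above their shScramble number (43.8%, beside 51.2% of all genes) and 26 below (19.0%, beside 17.3%). With hairpin 2, 37 were above (27.0%, beside 30.7%) and 44 below (32.1%, beside 32.9%), and the median log2 ratio was 0 with each hairpin. A covered end was found at 61 of them with hairpin 1 (44.5%), 45 with hairpin 2 (32.8%) and 42 with shScramble (30.7%), beside 73.0%, 68.4% and 64.8% of all genes. Among 10 gut regulators the median log2 ratio was 0.70 with hairpin 1 and 0.50 with hairpin 2, beside 0.17 and 0 over all genes. An end was covered at 8 of them with hairpin 1, 7 with hairpin 2 and 3 with shScramble. The shares of all genes are again 73.0%, 68.4% and 64.8%, to which the hairpin counts lie close. The largest mean ratio there was that of SOX9, a progenitor cell factor, with 2 regions with hairpin 1, 2 with hairpin 2 and 0 with shScramble. Among 17 liver regulators the medians were 0.32 with hairpin 1 and 0 with hairpin 2. An end was covered at 11, 7 and 6 genes (64.7%, 41.2% and 35.3%) in the same order as for the gut regulators. FOXA3, a forkhead factor of hepatocytes, had 1 region with hairpin 1, 1 with hairpin 2 and 3 with shScramble. The orphan receptor NR0B2 had 2 regions with hairpin 1, 1 with hairpin 2 and 0 with shScramble. The 39 other plasma protein genes were above at 14 (35.9%, beside 51.2% of all genes) and below at 12 (30.8%, beside 17.3%) with hairpin 1. With hairpin 2 they were above at 8 (20.5%, beside 30.7%) and below at 17 (43.6%, beside 32.9%). The coagulation factor gene F7 had 5 regions with hairpin 1, 4 with hairpin 2 and 0 with shScramble, and F10, whose product F7's product activates, had 6 regions with hairpin 1, 5 with hairpin 2 and 1 with shScramble. The 35 liver enzymes and transporters, beside the same shares of all genes, were above at 15 (42.9%) and below at 4 (11.4%) with hairpin 1. With hairpin 2 they were above at 8 (22.9%) and below at 10 (28.6%). CYP8B1, of bile acid synthesis, had 0 regions with hairpin 1, 0 with hairpin 2 and 1 with shScramble. AGXT, of glyoxylate metabolism, had 3 regions with hairpin 1, 1 with hairpin 2 and 0 with shScramble. The 36 genes of gut epithelium and gut hormones were above at 15 (41.7%) and below at 7 (19.4%) with hairpin 1. With hairpin 2 they were above at 10 (27.8%) and below at 9 (25.0%). The stem cell gene OLFM4 had 2 regions with hairpin 1, 2 with hairpin 2 and 0 with shScramble. These lists have between 10 and 39 genes, and how far their counts differ from those of genes at large was not tested.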

How the data were processed

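ATAC-seq was done on 9 samples, 3 per group, and 3 region lists were analysed. Tools named in the submitters' processing notes are BWA, deepTools 3.2.1, FastQC 0.11.7, SAMtools 1.9 and Trimmomatic 0.36, with builds dm6 and GRCh38. Which peak caller was used, and any shift of read ends or scaling to the spike-in, is not given in the sources used here. The list names carry that of ChIP-R, which combines replicates, and each list is filed under replicate 1 of its group. It was treated as the group's combined list, which is an inference. The deposited columns are a score, a second score of no stated unit, a p-value and a q-value, all set by the authors and read here within a list only. They hold no read counts, so depth is unknown.

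Regions on chromosomes 1 to 22 and X were used, 122869 with hairpin 1, 83241 with hairpin 2 and 85775 with shScramble. Gene positions came from RefSeq (GRCh38.p14, protein-coding only). Region numbers, covered bases, ends within 1 kb, log2 ratios with 1 added, and ranks by the authors' p were computed with Python 3.11.15, pandas 2.3.3 and scipy 1.17.1. The overlap counts were tested on simulated regions. The members, gene lists and alternatives were chosen with earlier results of these data known. All members are named, and of the other genes some of the up to 4 per list with the mean log2 ratio largest in size. Sequences are 4 of the 6 that the rule on covered starts gave (MUC2 and AMBP are not printed), with ALB and FABP1 added. One other marker list is not reported here.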

Additional observations from a re-analysis of the deposited data

How the results depend on the processing

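No replicate was left out, since each group has 1 list. No paired analysis was possible because the results come from no test and each group has 1 list, filed under the same replicate number. Values are given for hairpin 1, hairpin 2 and shScramble in that order, or for the first 2.

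With an authors' p up to 0.05, 6 and 4 members had more regions than with shScramble, 1 and 3 had fewer (all genes 20.3% and 16.7% more, 9.78% and 11.1% fewer), 11, 7 and 6 had a region, 5, 4 and 1 a covered end, and 1.84%, 1.10% and 0.690% of the loci was covered, against 11.1%, 5.56% and 9.05% over all regions. With the best 20000 regions, 8 members had more with hairpin 1 (all genes 18.6%) and 3 had fewer (19.6%). With hairpin 2 in this setting, 7 had more (22.3%) and 2 had fewer (16.4%). There 13, 14 and 8 members had a region, 7, 8 and 3 a covered end, and 2.26%, 1.82% and 1.37% was covered. The shares of all genes with a region or a covered end are not given for this setting, so these counts have no background beside them. With the best 80000, 6.99% was covered with hairpin 1. With 50 kb on both sides, 13 members had more and 13 fewer regions with hairpin 2 (all genes 38.3% and 41.6%), and the median log2 ratio with hairpin 1 was 0.30 (all genes 0.36). It was 0.26 (0.12) when the midpoint had to lie in the locus and 0.17 (0) with abutting regions counted as 1, where 1 member had fewer regions with hairpin 1 (16.4%). By starts alone, 7 and 6 of the 20 members with a given start were covered with the hairpins, and 8 with shScramble. Over all genes with a start the shares were 71.1%, 68.2% and 62.9%. Members with a covered end but no covered start with a hairpin were APOA1, APOB, APOC3, TAT, VIL1 and LGR5, for which no start was given. Without the regions at the commonest authors' p of each list, 5.29% of the loci was covered with shScramble. Counting abutting regions as 1 and leaving out the commonest p were chosen after seeing the data. Apart from the members without a given start, the cause of these shifts was not tested. The stricter lists hold fewer regions by construction. Leaving out wide regions (over 20 kb) and those with a negative second score, dropping the flank, adding 0.5 and windows of 500 bp or 2 kb kept each count within 1.5 times.

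Per gene, the sign turned with hairpin 1 at CDX1 and LGR5 and with hairpin 2 at TF and HNF4A when the p limit was applied, and with the best 20000 regions at TF, CPS1, CDX1 and LGR5 with hairpin 1 and HNF4A with hairpin 2. With 50 kb on both sides it turned at APOB and CYP2E1 with hairpin 1 and at HNF4A and VIL1 with both hairpins (VIL1 13 and 13 regions, against 15 with shScramble). APOA1, APOC3 and CYP2C19 did not turn in any alternative run, but their differences were lost in some: CYP2C19 had no region left in any list under the p limit or among the best 20000, APOA1 had 0 with hairpin 1 and 0 with shScramble under the p limit, and APOC3 had 1 with hairpin 2 and 1 with shScramble without the flank.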
